A study of Mus musculus with 6 samples.

Results

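The 43 genes described here encode enzymes and transporters that make, move and process the lipids of the epidermal permeability barrier. They form a list fixed by gene name, not by a measured value, but it was drawn up with earlier results of these data known. All 43 had a probe on the array, out of 21368 genes that could be named. Each gene was read from its brightest probe. Epidermis peeled from the dorsal skin of mouse embryos was profiled at embryonic day 16 on 6 Agilent arrays in 2 colours, each holding a knockout sample and a wild-type littermate sample in opposite dyes. The genotypes were Sox4 cKO, Sox11 cKO and the double knockout dcKO (Sox4/11), with 2 arrays for each. The labels give a mixed 129SvEx:C57BL/6 strain. Per the study's methods the floxed Sox4 and Sox11 alleles were deleted by Krt14-Cre (FVB/N), and the founding stock also carried Sox12-/-. Krt14 is a keratin of basal keratinocytes. The labels state no Sox12 genotype for any group. Replicate 1 of each genotype had the knockout in Cy5 and replicate 2 had it in Cy3, so replicate number and dye orientation cannot be told apart.

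The barrier of the skin is a stack of lipid sheets between the dead cells of the outermost layer. Keratinocytes in the upper living layers build very long acyl chains, join them to sphingoid bases as ceramides, and link linoleate to the longest of these to give acylceramides. Glucosylated ceramides and sphingomyelins are packed into lamellar bodies and secreted, and enzymes outside the cell turn them back into ceramides. Lipoxygenases oxidise the linoleate so that ceramides can be bound to the protein envelope of the dead cell. In mice this barrier is laid down shortly before birth, and many of the genes below are mutated in human ichthyoses.

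Before the lipid genes, the deleted genes and the makeup of the samples were checked. The dimmer of the 2 Sox4 probes was lower by at least 3.05-fold in Sox4 cKO (adjusted p = 0.0289, limma). For dcKO the bound was at least 3.0-fold (adjusted p = 0.00227). The brighter Sox4 probe, well above background in all 12 channels, fell less, with adjusted p above 0.05 in both genotypes. It read -0.14 and -0.71 on the Sox4 cKO arrays (0.803, limma) and -0.95 and -0.69 on the dcKO arrays (0.0778). The 2 probes thus differed in how far Sox4 fell. Both Sox11 probes lay near background and could not check the Sox11 genotype. All 6 basal and all 8 suprabasal keratinocyte markers, such as Krt5, Krt14, Krt1 and Krt10, were well above background in both channels of every array, as were 6 of 7 dermal fibroblast markers on every array, so the peeled sheets also held some dermal RNA. On each array knockout and wild type were alike in sex by Xist and Y-linked transcripts. Replicate 1 of both single knockouts was male, replicate 2 was female, and both dcKO arrays were male. In bulk samples such as these, fewer cells of a type and less RNA per cell cannot be told apart.

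Of the 43 genes, 34 were well above background in all 12 channels (6 arrays, 2 dyes each), 5 in some of them (Cers4, Nipal4, Far2, Scd1 and Lipn) and 4 in none (Degs2, Fa2h, Elovl3 and Sgms2). For these 4 the array gives only noise around background, and their values are printed to account for them. Every value below is log2(knockout/wild type) within an array unless it is called a difference between knockouts, and a fold change is the mean of the 2 arrays of a genotype. A gene passed where its limma p, adjusted over all probes by the Benjamini-Hochberg method, was under 0.05. It was called where it also had an absolute log2 fold change over 1.5, the threshold in the study's methods. The study's figure legend for these arrays gives a fold change over 1.5 instead, a looser rule that was not used here.

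**Figure D1:**
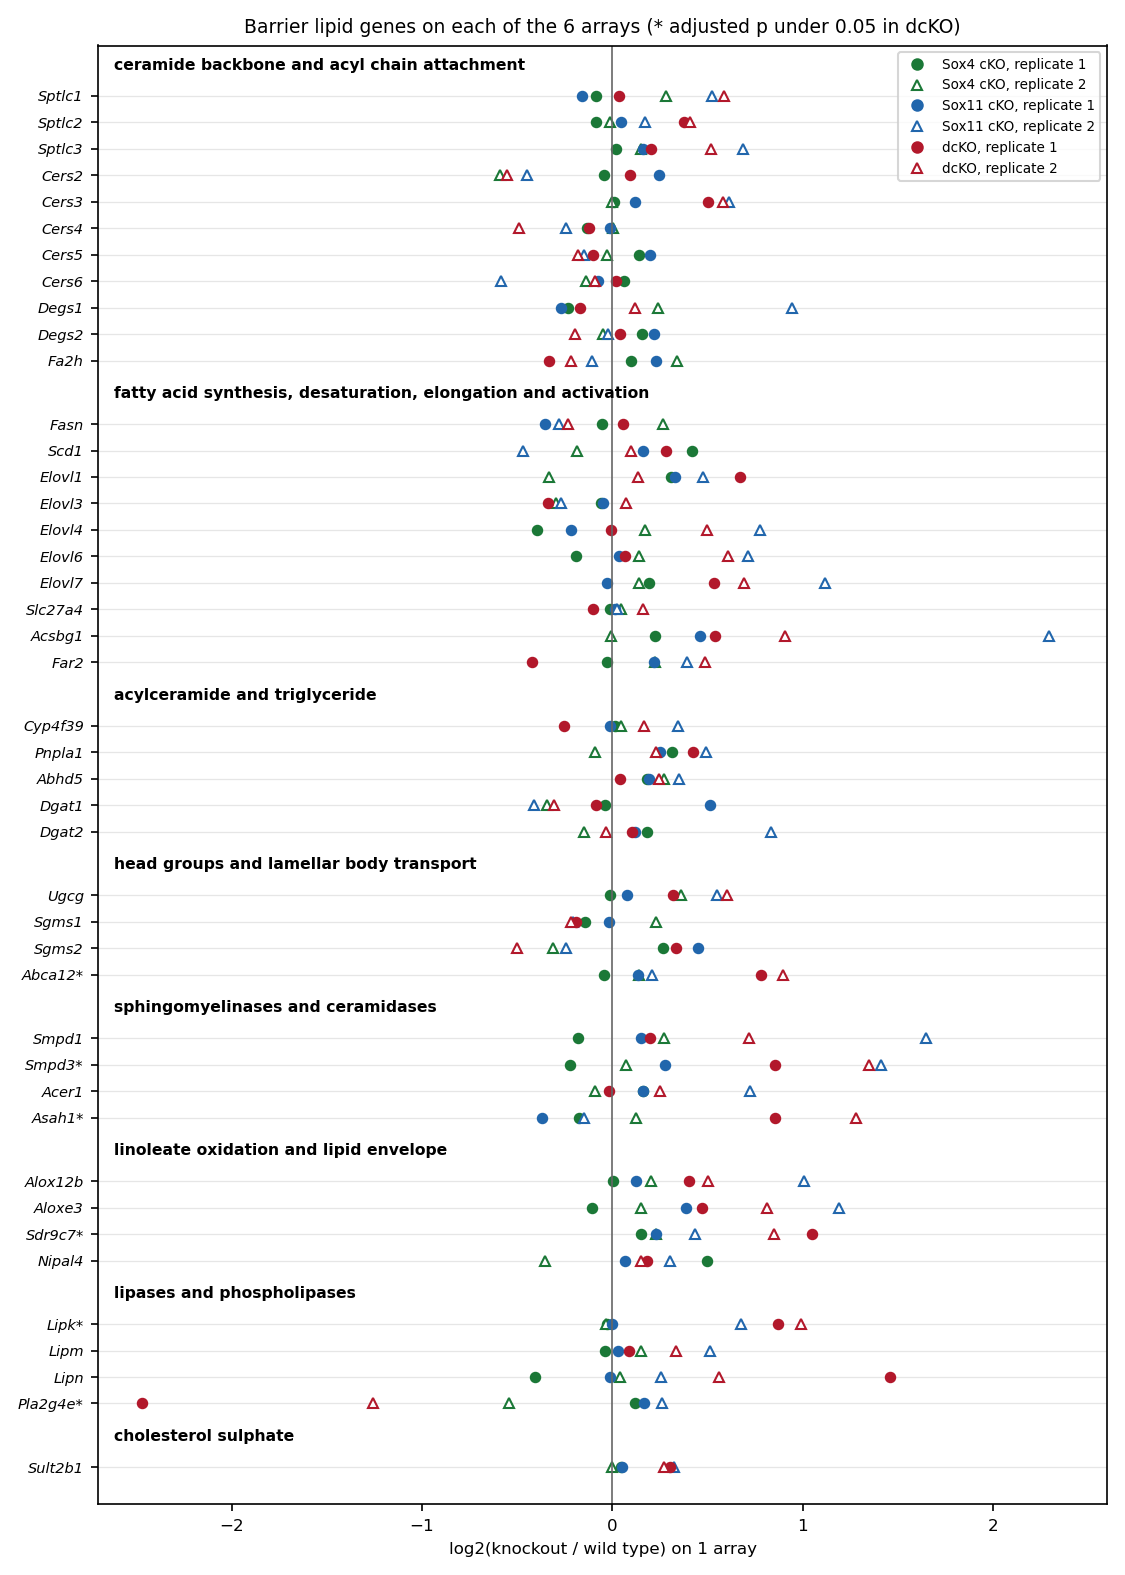
Each row is 1 of the 43 genes, grouped by role. The horizontal axis is log2(knockout/wild type) on 1 array, with colour for the genotype, filled circles for replicate 1 and open triangles for replicate 2. A star marks the 6 genes that passed in dcKO, of which only Pla2g4e was below 0 there. The open blue triangle of Sox11 cKO replicate 2 is the rightmost of the 6 points in 19 rows.

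Loss of both genes was accompanied by higher transcript levels of 5 barrier lipid genes and a lower level of 1. Abca12, Smpd3, Asah1, Sdr9c7 and Lipk rose in dcKO by 1.79 to 2.15-fold, and Pla2g4e fell 3.64-fold. These 6 made up 14% of the 43 genes. Among all 55681 probes 0.83% passed in this comparison (0.523% higher and 0.307% lower), and among the 10406 named genes that were well above background in all channels 2.2% did. Only Pla2g4e was called, against 0.207% of all probes. The 6 genes that passed fall in 4 of the 8 roles. None of the 11 ceramide backbone genes, 10 fatty acid genes or 5 acylceramide genes passed in this main fit. Under some other processing settings, described at the end, a few of them did. Cers3, and Ugcg of the head group genes, passed with an offset of 50, without background subtraction, with ComBat, and with the trend and robust prior. Sptlc2, Sptlc3 and Elovl6 passed with ComBat. More of all probes passed under these settings too.

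Abca12, the transporter that loads glucosylceramide into lamellar bodies, had values of 0.78 and 0.90 on the dcKO arrays. On the Sox4 cKO arrays they were -0.04 and 0.14, and on the Sox11 cKO arrays 0.14 and 0.21. Both dcKO values lay above all 4 others, and the dcKO fold change of 0.84 ± 0.081 (SD, n = 2) had an adjusted p of 0.0216 in limma.

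Sdr9c7, a dehydrogenase that acts on oxidised linoleate of acylceramide, was likewise higher on both dcKO arrays (1.05 and 0.85) than on any single-knockout array. The Sox4 cKO arrays gave 0.15 and 0.23, and the Sox11 cKO arrays 0.23 and 0.43. The dcKO fold change was 0.95 ± 0.14 (SD, n = 2) with an adjusted p of 0.0167 in limma.

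Asah1, the acid ceramidase of lysosomes, which splits ceramide into a sphingoid base and a fatty acid, had dcKO values of 0.86 and 1.28. Its Sox11 cKO values of -0.37 and -0.15 were both below 0, and its Sox4 cKO values of -0.18 and 0.12 fell on either side of it. The fold change in dcKO was 1.07 ± 0.30 (SD, n = 2, adjusted p = 0.0078 in limma), and a second Asah1 probe gave 1.04 and passed too.

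Smpd3, a neutral sphingomyelinase that releases ceramide from sphingomyelin, had the largest rise of the 43 genes in dcKO, 1.1 ± 0.35 (SD, n = 2, adjusted p = 0.021 in limma), from values of 0.86 and 1.35. It differed from the 3 genes before it in Sox11 cKO, where it read 0.27 on replicate 1 and 1.41 on replicate 2, so that the groups overlapped. In Sox4 cKO it read -0.22 and 0.07.

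Lipk, a lipase of the upper epidermis, had 0.87 and 0.99 in dcKO. Its Sox4 cKO arrays both read -0.03, while Sox11 cKO read 0.00 on replicate 1 and 0.68 on replicate 2. Both dcKO values were above the other 4, and the fold change of 0.93 ± 0.087 (SD, n = 2) had an adjusted p of 0.0329 in limma. Lipn, a lipase of the same family, was well above background in the knockout on both dcKO arrays and in the wild type on neither. It was at least 1.93-fold higher in dcKO, with values of 1.46 and 0.56 and an adjusted p of 0.101 in limma, and so did not pass in the main fit. Lipn did pass with an offset of 50, without background subtraction, with ComBat, with the trend and robust prior, and with the dcKO arrays fitted on their own. Under the first 4 of these more of all probes passed too. The related Lipm read 0.09 and 0.33.

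Pla2g4e, a cytosolic phospholipase that also forms N-acyl phosphatidylethanolamines, was the only one of the 6 to fall. It read -2.47 and -1.26 on the dcKO arrays, against 0.12 and -0.54 for Sox4 cKO and 0.16 and 0.26 for Sox11 cKO. The dcKO values lay below all others but differed between the 2 arrays, and the fold change was -1.86 ± 0.86 (SD, n = 2, adjusted p = 0.0152 in limma). Periderm is the transient outer layer of embryonic skin, and all 6 of its markers were also lower on both dcKO arrays (Krt4, Krt6a, Krt8, Krt17, Krt18 and Krt19, medians of -1.1 and -1.03), and 3 of them passed (Krt4, Krt17 and Krt19). The summed level of these markers was 1.14 and 1.19 log2 units below the wild type on the dcKO arrays, 0.89 and 0.42 below it on the Sox11 cKO arrays, and 0.07 and 0.17 below it on the Sox4 cKO arrays. On the Sox4 cKO arrays 5 of the 6 markers were nevertheless above 0, with medians of 0.66 and 0.41, and only Krt17 was below 0. No periderm marker was at background on any array. In the dcKO samples the summed log2 level was 11.8 and 11.9, against 13.0 and 13.1 in their wild types. In the Sox11 cKO samples it was 13.0 and 13.4, against 13.9 and 13.8 in their wild types, the highest of the wild-type levels. In the Sox4 cKO samples it was 12.9 and 13.0, against 12.9 and 13.2. The part of the periderm markers in the Pla2g4e value was not tested.

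**Figure D2:**
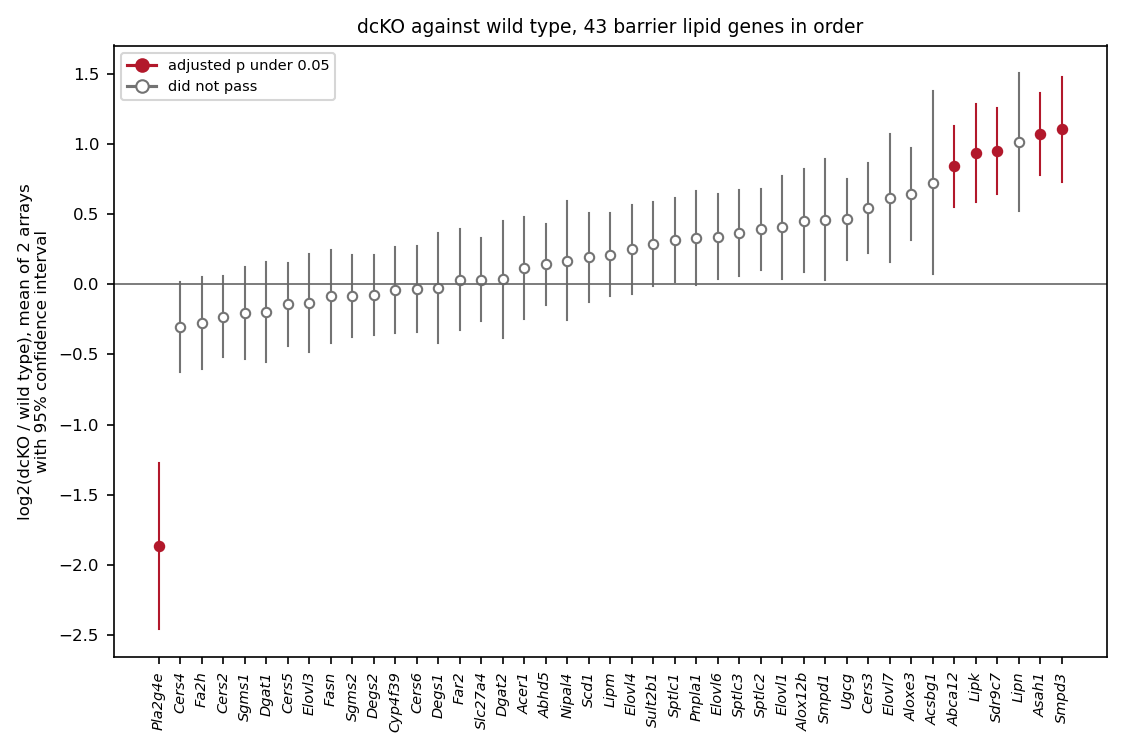
The 43 genes in order of their dcKO fold change. Points are the mean log2(dcKO/wild type) of 2 arrays and bars are limma's 95% confidence intervals, in red and filled where the adjusted p was under 0.05. The 5 genes at the right that passed lie between 0.84 and 1.1, Lipn lies among them without passing, and Pla2g4e stands alone at -1.86.

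With 2 arrays for each genotype these calls rest on both dcKO arrays. With either of them left out dcKO rests on 1 array, assumed to vary like the other groups, so its calls there carry little weight. Over the settings that left out 1 array, the Pla2g4e value ran from -2.61 to -1.11. Those of the genes that rose and passed in the main fit stayed between 0.78 and 1.21. With the log ratios that the scanner software computed itself, 0 of the 43 genes passed, as did 0 of all probes. Pla2g4e also lost its call with the intensity trend and robust prior (adjusted p = 0.346).

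RefSeq promoter windows were read for the members to show the sequence next to their starts. Of the 43 genes, 34 had a window, among them 3 of the 6 that passed in dcKO. Their 250 bases before the gene start (GRCm38.p6) are given 5′ to 3′ on the strand of the gene, in lower case, with capitals for a match to one of the motifs searched. Abca12 lies on the minus strand at chr1:71414911-71415160, Sdr9c7 on the plus strand at chr10:127898285-127898534, and Pla2g4e on the minus strand at chr2:120245336-120245585.
Abca12: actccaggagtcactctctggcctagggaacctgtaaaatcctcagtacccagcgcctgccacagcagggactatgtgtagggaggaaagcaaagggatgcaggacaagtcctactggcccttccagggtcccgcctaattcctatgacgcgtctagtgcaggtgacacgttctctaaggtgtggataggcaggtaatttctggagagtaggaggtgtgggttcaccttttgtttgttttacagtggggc
Sdr9c7: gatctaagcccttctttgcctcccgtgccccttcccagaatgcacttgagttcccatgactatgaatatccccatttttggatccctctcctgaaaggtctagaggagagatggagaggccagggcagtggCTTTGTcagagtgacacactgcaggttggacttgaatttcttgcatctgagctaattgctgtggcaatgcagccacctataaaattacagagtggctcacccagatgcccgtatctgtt
Pla2g4e: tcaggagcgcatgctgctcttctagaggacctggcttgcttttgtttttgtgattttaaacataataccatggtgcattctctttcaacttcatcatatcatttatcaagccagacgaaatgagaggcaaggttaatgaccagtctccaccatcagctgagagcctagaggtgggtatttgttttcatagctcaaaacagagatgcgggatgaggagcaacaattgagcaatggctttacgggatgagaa

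The motifs, searched on both strands over windows that also took in 50 bases past the start, were the SOX cores ACAAAG and ACAATG, the AP-1 site TGANTCA, the GRHL site AACCGGTT and the nuclear receptor direct repeat with a spacing of 1 base. In the 3 windows shown, the only match was an ACAAAG on the minus strand of Sdr9c7, which begins 119 bases before the start. ACAAAG was found in 17.8% of the 45 windows of the members and in 18.7% of all 32851 windows, ACAATG in 11.1% and 12.6%, and TGANTCA in 11.1% and 7.81%. AACCGGTT was found in 1 window of the members, a window of Sgms1, and in 0.146% of all windows, and the direct repeat in 0 and 0.0396%. The window of Sptlc3 held 3 ACAAAG and 1 ACAATG. These are matches of letters and no measure of binding.

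Over all 43 genes the median dcKO fold change was 0.21 (0.10 on replicate 1 and 0.25 on replicate 2), against 0.00 over all probes, and over the 34 genes detected in all channels it was 0.32. On both dcKO arrays 24 genes were above 0 and 6 below 0, or 55.8% and 14% of them, where 24.8% and 25% of all probes were. An unadjusted p under 0.05 was reached by 19 of the 43 (44.2%), against 9.89% of all probes and 16.2% of the named genes detected in all channels. Among the 34 detected in all channels 18 reached it (52.9%). Both dcKO arrays lay above all 4 single-knockout arrays for 6 genes (Abca12, Asah1, Sdr9c7, Lipk, Lipn and Sptlc2), or 14%, against 6.31% of all probes. Of these, Lipn was at background on the single-knockout arrays. A second Sptlc2 probe read -0.59 and 0.05 in dcKO and did not lie above them. The dcKO arrays lay below all 4 for 2 genes (Pla2g4e and Fa2h, the latter at background), or 4.65%, against 6% of all probes.

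The linoleate oxidation and envelope genes had a median of 0.55 in dcKO, and all 4 were above 0 on each of its arrays. Beside Sdr9c7, the lipoxygenases Aloxe3 (0.47 and 0.81, adjusted p = 0.121) and Alox12b (0.40 and 0.50, adjusted p = 0.396) did not pass, nor did Nipal4, a membrane protein of the same pathway (0.18 and 0.15, adjusted p = 0.837). Aloxe3 did pass with an offset of 50, without background subtraction, with ComBat, and with the trend and robust prior, where more of all probes passed too.

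Of the sphingomyelinases and ceramidases, which release or split ceramide, all 4 had dcKO fold changes above 0, with a median of 0.76. Smpd1, the acid sphingomyelinase, read 0.20 and 0.72 (adjusted p = 0.471), and Acer1, the alkaline ceramidase of differentiated keratinocytes, read -0.02 and 0.25 (adjusted p = 0.877). Among the head group genes, Ugcg, which makes glucosylceramide, read 0.32 and 0.60 (adjusted p = 0.231). The sphingomyelin synthases Sgms1 and Sgms2 had fold changes of -0.20 and -0.08, the latter at background.

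The 11 genes for the ceramide backbone and its acyl chain gave a dcKO median of -0.03, with 4 genes above 0. These 4 were the 3 subunits of serine palmitoyltransferase, the enzyme of the first step (Sptlc1 0.31, Sptlc2 0.39 and Sptlc3 0.36), and Cers3 (0.54, adjusted p = 0.195), the ceramide synthase of ultra-long chains. A second probe of Sptlc2 read -0.27 and one of Sptlc3 read -0.03, so the probes of both genes disagreed, whereas both Cers3 probes were above 0 (0.42 for the dimmer). The other ceramide synthases, Cers2, Cers4, Cers5 and Cers6, read between -0.30 and -0.03. The desaturases Degs1 and Degs2 had -0.03 and -0.08, and the fatty acid hydroxylase Fa2h had -0.28. Degs2 and Fa2h were at background, and both count in the median.

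The 10 genes of fatty acid synthesis, elongation and activation ranged from -0.13 to 0.72 in dcKO with a median of 0.22. The highest was Acsbg1, an acyl-CoA synthetase (0.54 and 0.91, adjusted p = 0.449). The elongases Elovl7 (0.61), Elovl1 (0.40), Elovl6 (0.34) and Elovl4 (0.25) were above 0 on average without passing, and Elovl3 (-0.13) was at background. Fasn, the fatty acid synthase, read -0.09, the desaturase Scd1 0.19, the transporter and acyl-CoA synthetase Slc27a4 0.03, and the acyl-CoA reductase Far2 0.03.

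For acylceramide and triglyceride the 5 genes lay between -0.20 and 0.33 in dcKO. Pnpla1, the transacylase that forms acylceramide, was at the upper end (0.43 and 0.23, adjusted p = 0.518), and the omega-hydroxylase Cyp4f39 (-0.04), the lipase cofactor Abhd5 (0.14), Dgat1 (-0.20) and Dgat2 (0.04), which complete triglycerides, were closer to 0. Sult2b1, which sulphates cholesterol, read 0.30 and 0.27 (adjusted p = 0.532).

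With Sox4 alone lost, in limma 0 of the 43 genes passed, against 0.00539% of all probes (3 probes), and 1 gene had an unadjusted p under 0.05, where 6.17% of all probes did. The median fold change was 0.03 and the range -0.32 to 0.23, and 41 of the 43 genes (95.3%) stayed within 0.5 of 0 on both arrays, as did 92.8% of the named genes detected in all channels. Cers2, the ceramide synthase of very long chains, had the largest absolute value, -0.32 ± 0.39 (SD, n = 2, adjusted p = 0.807 in limma), with -0.04 on replicate 1 and -0.59 on replicate 2. Its values were 0.25 and -0.45 for Sox11 cKO and 0.09 and -0.55 for dcKO, so replicate 2 was the lower in every genotype. Abhd5 read 0.18 and 0.27 on the Sox4 cKO arrays, 0.19 and 0.35 on the Sox11 cKO arrays and 0.04 and 0.24 on the dcKO arrays, above 0 on all 6 arrays, and did not pass in any genotype (adjusted p = 0.83, 0.72 and 0.78). A dimmer Abhd5 probe was below 0 on replicate 1 of Sox11 cKO (-0.10) and of dcKO (-0.07). Fa2h, at background, read 0.10 and 0.34 with Sox4 lost, 0.23 and -0.11 with Sox11 lost, and -0.33 and -0.22 with both lost. All markers of suprabasal keratinocytes were detected in Sox4 cKO, with list medians of 0.17 and -0.01 on its 2 arrays.

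Loss of Sox11 alone gave fold changes above 0 for 35 of the 43 genes, 23 of them above 0 on both arrays (53.5%, and 22.7% of all probes), but with a wide spread between the arrays. In limma 0 of the 43 passed, and 0% of all 55680 probes did in this comparison. An unadjusted p under 0.05 was reached by 16 genes (37.2%), against 7.04% of all probes and 6.41% of the named genes detected in all channels. The median was 0.21, the same to 2 decimals as in dcKO, from 0.12 on replicate 1 and 0.35 on replicate 2. Replicate 2 read higher than replicate 1 for 32 of the 43 genes (74.4%, and 49.8% of all probes), and by at least 0.5 for 14 of them (32.6%, and 10.7% of all probes). It was the highest of the 6 arrays for 19 genes (44.2%, and 18.2% of all probes).

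The 3 largest Sox11 cKO fold changes, those of Acsbg1, Smpd1 and Smpd3, came with gaps of over 1 between its arrays. Acsbg1 read 0.46 on replicate 1 and 2.30 on replicate 2, for a fold change of 1.38 ± 1.30 (SD, n = 2, adjusted p = 0.615 in limma). The other genotypes gave 0.23 and -0.01 (Sox4 cKO) and 0.54 and 0.91 (dcKO), so that only Sox11 cKO replicate 2 stood above 1. Smpd1 likewise read 0.15 and 1.65, next to -0.18 and 0.27 for Sox4 cKO and 0.20 and 0.72 for dcKO. Its Sox11 cKO fold change of 0.90 ± 1.06 (SD, n = 2) had an adjusted p of 0.643 in limma. Smpd3, given above, had 0.84 (adjusted p = 0.567). With the intensity trend and a robust prior in the fit Smpd3 and Aloxe3 passed in Sox11 cKO. The share of all probes that passed under that setting is not given here, so these calls have no background beside them. With Sox11 cKO replicate 1 left out the fold change of Acsbg1 was 2.26, resting on 1 array.

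The 8 suprabasal markers (Krt1, Krt10, Krtdap, Sbsn, Lor, Ivl, Casp14 and Cdsn) were read beside the lipid genes. All 8 were above 0 on both arrays of dcKO and of Sox11 cKO, and none passed. Their medians were 0.17 and 1.16 on Sox11 cKO replicates 1 and 2, 0.63 and 0.48 on the dcKO arrays and 0.17 and -0.01 on the Sox4 cKO arrays. The summed level of the 8 markers exceeded that of the wild type by 0.13 and 1.12 log2 units in Sox11 cKO, by 0.65 and 0.39 in dcKO, and by 0.29 in Sox4 cKO replicate 1, and it was 0.16 below it in Sox4 cKO replicate 2. In the 6 knockout samples that summed log2 level ran from 18 to 18.6 and in the wild-type samples from 17.2 to 18.3, the lowest being the wild type of Sox11 cKO replicate 2. Among the 6 basal markers the summed level stayed between 0.06 below and 0.18 above the wild type on all arrays. The dermal fibroblast markers had medians of -1.63 and -1.70 on the dcKO arrays, where 5 of the 7 were below 0 and 2 above 0 on both, -3.42 and 0.77 on those of Sox4 cKO, and 0.94 and -0.65 on those of Sox11 cKO, and none passed. Their summed level differed less in dcKO, by -0.35 and -0.09 log2 units, and differed by -0.998 and 0.54 in Sox4 cKO and by 0.10 and -0.05 in Sox11 cKO. The summed level of 5 red blood cell markers differed by -0.56 and 1.37 log2 units on the dcKO arrays, and by 0.46 and 0.85 on the Sox11 cKO arrays. On the Sox4 cKO arrays it differed by 0.37 and -0.46. That of 6 skeletal muscle markers, most of them near background, differed by -2.42 on Sox4 cKO replicate 1 and -0.80 on dcKO replicate 2. The part of cell makeup in the lipid gene values was not tested.

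**Figure D3:**
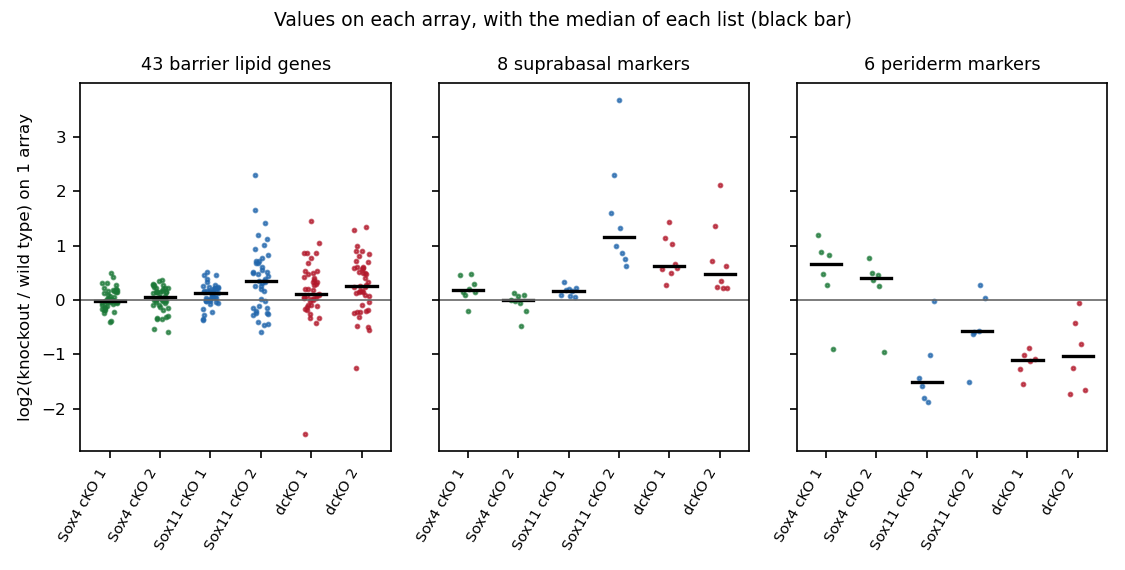
The vertical axis is log2(knockout/wild type) on 1 array, for the 43 barrier lipid genes, the 8 suprabasal markers and the 6 periderm markers. Points are genes and black bars are the list medians. The suprabasal and lipid gene medians are both highest on Sox11 cKO replicate 2 (1.16 and 0.35), and the periderm medians are below 0 on all Sox11 cKO and dcKO arrays and above 0 on both Sox4 cKO arrays (0.66 and 0.41).

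To ask which values differed between the double and the single knockouts, the differences were tested in the same fit. They are differences of log2 ratios, each against its own wild-type littermates, and whether wild-type RNA was shared between genotypes is not stated in the sources used here. Between dcKO and Sox4 cKO 0 of the 43 genes passed in limma (0.145% of all probes did), 11 had an unadjusted p under 0.05 (25.6%, and 6.11% of all probes), and 30 were higher in dcKO. The nearest was Asah1, with a difference of 1.09 (95% interval 0.68 to 1.51, adjusted p = 0.10). Between dcKO and Sox11 cKO 1 gene passed (0.16% of all probes), and 18 were higher in dcKO. That gene was Asah1, with a difference of 1.33 (95% interval 0.92 to 1.74, adjusted p = 0.0379 in limma).

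For Asah1 all 4 arrays of the 2 genotypes bear on this value. With either array of Sox4 cKO left out its adjusted p was above 0.05 as well, and over the 6 settings that leave out 1 array it ran from 0.0602 to 0.337. It was 0.155 without the replicate block. The other genes that passed in dcKO did not pass in the same comparison. Sdr9c7 differed from Sox11 cKO by 0.62 (0.19 to 1.05, adjusted p = 0.575) and Lipk by 0.59 (0.10 to 1.09, adjusted p = 0.639). Abca12 differed from Sox11 cKO by 0.66 (0.26 to 1.07, adjusted p = 0.484) and from Sox4 cKO by 0.79 (0.38 to 1.20, adjusted p = 0.353). Smpd3 differed from Sox4 cKO by 1.18 (0.65 to 1.71, adjusted p = 0.224), while its difference from Sox11 cKO was 0.26 (-0.27 to 0.79, adjusted p = 0.858). Pla2g4e was lower than in Sox11 cKO by a difference of -2.08 (-2.91 to -1.24, adjusted p = 0.125).

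For the dcKO value against the sum of the Sox4 cKO and Sox11 cKO values, 0 of the 43 genes passed in limma where 0.0862% of all probes did. At an unadjusted p under 0.05 there were 5 (11.6%, and 6.35% of all probes). The largest positive departure was that of Asah1, 1.35 (0.85 to 1.86, adjusted p = 0.155), and the largest negative one that of Pla2g4e, -1.87 (-2.89 to -0.84, adjusted p = 0.576). Over the list the median departure was -0.09.

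**Figure D4:**
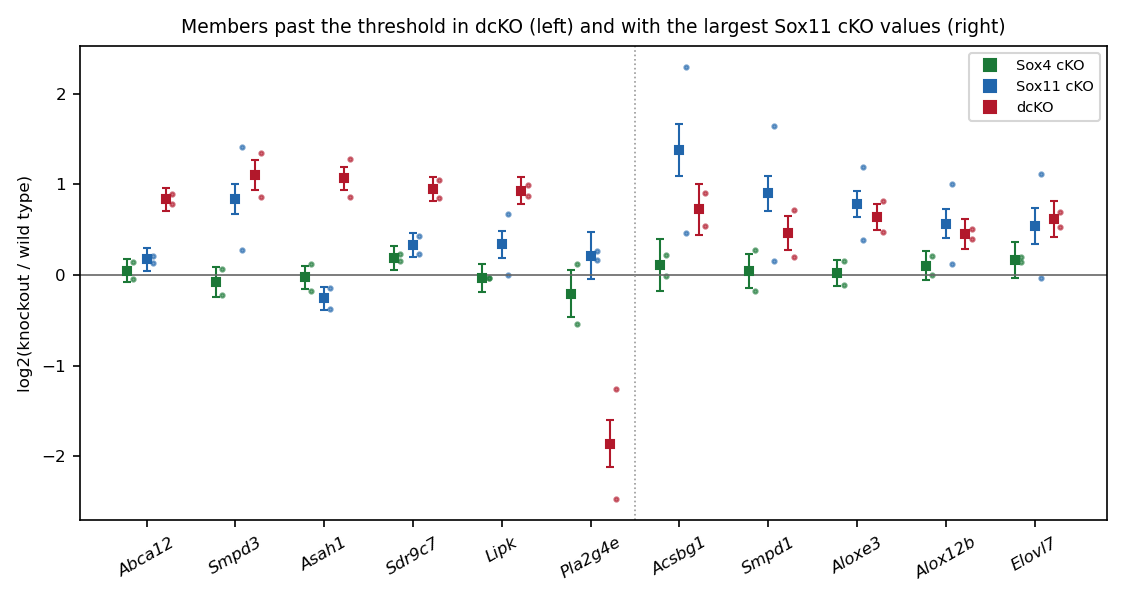
Squares are the fold change of each genotype on the log2 scale with limma's standard error, and small dots are its 2 arrays. To the left of the dotted line are the 6 genes that passed in dcKO, and to the right 5 further genes with the largest Sox11 cKO values. Asah1 is below 0 in Sox11 cKO and at 1.07 in dcKO, whereas Smpd3 is high in both, and the Sox11 cKO dots of Acsbg1 and Smpd1 lie far apart.

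Genes of neighbouring lipid pathways were read in the same way from a second list. Of 88 such genes 87 had a probe, and in dcKO 2 rose and 2 fell (4.6% in all). In that comparison 0.83% of all probes passed, and 2.2% of the named genes detected in all channels. Asah2, the neutral ceramidase, rose by 1.08 (1.16 and 1.00 on the arrays, adjusted p = 0.0103), and Abcg1, a cholesterol exporter, by 0.96 (0.69 and 1.23, adjusted p = 0.0329). Plin2, a coat protein of lipid droplets, fell by 0.99 (-0.96 and -1.02, adjusted p = 0.0144), and Pparg, a nuclear receptor that controls lipid genes, fell by 0.78 (-0.89 and -0.68, adjusted p = 0.0359). In the single knockouts 0 of the 87 passed, where 0.00539% (Sox4 cKO) and 0% (Sox11 cKO) of all probes did. The 87 genes had a median of -0.01 in dcKO, with 28 above 0 and 23 below 0 on both arrays. Among all probes 24.8% were above 0 and 25% below 0 on both.

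By pathway, 1 of the 20 other sphingolipid genes rose (Asah2), with a median of 0.04. Of the 20 cholesterol genes, most of them enzymes of cholesterol synthesis, 1 rose (Abcg1) and the median was -0.02. Of the 36 other fatty acid and glycerolipid genes 1 fell (Plin2), with a median of -0.04. Of the 11 regulators 1 fell (Pparg), with a median of -0.03. An unadjusted p under 0.05 in dcKO was found for 15 of the 87 (17.2%), against 16.2% of the named genes detected in all channels.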

How the data were processed

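Per the labels, knockout and wild-type epidermal RNA was hybridised together on 6 Agilent SurePrint G3 mouse arrays, 2 per genotype with the dyes swapped. The authors extracted images with Agilent Feature Extraction 11.0.1.1, and the deposited scanner files give each spot's median intensity and local background, not normalized, beside the software's own log10 ratio. The deposited series table holds log2(knockout/wild type); per the study's methods it was corrected with normexp (offset of 16) and loess in limma and adjusted for colour with ComBat. Set against values computed here, its correlation was at least 0.9999 on every array, and no member differed by more than 0.0751, so it carries no colour adjustment. Its tested values are an alternative.

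Here, in R 4.3.3 with limma 3.58.1, median signals were corrected with normexp (offset of 16) and loess, control spots were left out, and spots of a probe averaged, which left 55681 probes. A model with 1 coefficient per genotype and 1 for dye, moderated by eBayes (6.63 prior and 2 residual degrees of freedom), was fitted to all 6 arrays. Tests were two-sided. The dye coefficient equals the replicate block. Replicate numbers were taken to pair the arrays. Residuals from the genotype means correlated at 0.258, 0.306 and 0.328 between same-numbered arrays. Because a number also fixes the dye orientation, a shared dye effect and a pairing cannot be told apart in these correlations. A number marks dye orientation and, in the single knockouts, also sex. In each channel 38.9% to 43.6% of non-control spots exceeded background clearly, and all arrays lay on 1 slide, scanned together. The number of arrays limits the precision. Array files give no read depth.

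Probes were named through RefSeq accessions (21368 symbols). A probe not well above background on either array of a group is given as a bound, the bright group's mean over the lowest signal well above background or the dim probe's own signal, whichever was higher, in channel values after Aquantile normalization; such bounds are open to dye bias. The fit was tested on simulated data. The members, the lists of other genes and markers, and the motifs were chosen with earlier results of these data known. Values on all arrays are given for members that passed in any comparison and for the 3 with the largest absolute fold change in each single knockout. The alternatives were an offset of 50, no background subtraction, median centring, the software's log ratio, the series table, no replicate block, ComBat (its parametric formulas, written in R), own arrays only, a trend with a robust prior, dim probes left out, the mean of a gene's probes, and each array left out.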

Additional observations from a re-analysis of the deposited data

Results flagged for a closer look

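Asah1, the acid ceramidase, is given here because its value in dcKO differed from that in Sox11 cKO by the test of the difference itself. The difference was 1.33 on the log2 scale (adjusted p = 0.0379 in limma), with values of 0.86 and 1.28 on the dcKO arrays and -0.37 and -0.15 on the Sox11 cKO arrays. Every dcKO value was above every Sox11 cKO value, which restates the values tested and adds no support. It passed under 8 of 10 alternatives that used all 6 arrays and under 0 of 6 that left out 1 array. With 2 arrays in a group no array could be tested as an outlier.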

How the results depend on the processing

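The main count of genes that passed in dcKO was 6 of 43. It was 10 with an offset of 50, 10 without background subtraction, 13 with ComBat and 0 with the Feature Extraction log ratio, and 0 to 6 with 1 array left out. The calls over all probes moved too, from 462 to 1376, 1098, 3632 and 0 under those 4 settings. Without the replicate block it was 4 (Smpd3 and Lipk were lost). Other settings gave 6 to 9, the 9 with the trend and robust prior, where Pla2g4e was lost and 1252 probes passed in all. In Sox4 cKO 0 genes passed under every alternative. In Sox11 cKO 2 passed with the trend and robust prior, for which the count over all probes is not given here, and 0 under the others that kept every array. Between dcKO and Sox4 cKO the count was 5 with an offset of 50, 3 without background subtraction, 2 with ComBat, 4 with the trend and robust prior and 0 to 2 with 1 array left out, against 0 in the main setting (all probes 277, 219, 369 and 267, against 81). Between dcKO and Sox11 cKO, against 1, it was 3, 2, 2 and 2 under the same settings (all probes 322, 258, 690 and 312, against 89), 0 with the Feature Extraction log ratio, 0 without the replicate block and 0 to 2 with 1 array left out. For the departure from the sum it was 1, 1, 1 and 1 under those 4 settings, and 0 to 1 with 1 array left out, against 0. The block changed no other call. No fold change given above for a gene that passed turned its sign. The causes were not tested. Naming probes by a gene name column was not run, since the scanner files used here hold none. Most probes lie near background, which limits what can be measured for the 9 members not detected in all channels.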
